A study of Mus musculus with 12 samples.

Results

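The genes of MHC class II antigen presentation were followed in M1-activated bone marrow-derived macrophages (BM-Mɸs) with and without a floxed ErbB4 deletion. The set was chosen by gene name and covers the chains of the classical molecules (H2-Aa, H2-Ab1, H2-Eb1), the invariant chain (Cd74), the peptide editor H2-M (H2-DMa, H2-DMb1, H2-DMb2), its partner H2-O (H2-Oa, H2-Ob) and the transactivator Ciita. Of these 10 genes, 9 were among the 22243 genes of the expression table, and H2-Eb1 was not analysed here. All 9 averaged 1 TPM or more over the libraries, as did 8780 genes in all, so that each entered the test.

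BM-Mɸs were grown in M-CSF from the marrow of C57Bl/6 mice, primed over 16 h with IFNγ (100 U/mL) and then held with LPS (100 ng/mL) over 6 h, a treatment called M1 activation. ErbB4myeKO mice carried LysMCre together with floxed ErbB4, and ErbB4FF littermates carried the floxed alleles without Cre, with 1 mouse of each genotype from each of 6 litters (n = 6 per genotype). LysMCre acts in myeloid cells as a whole, every culture received IFNγ and LPS, and age and sex are not on the labels. The deposited values are TPM, transcript abundances scaled to a fixed total per library, a measure per transcript length that allows genes to be compared with each other, and the depth behind a value is not part of it.

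MHC class II molecules carry peptides from proteins taken up by the cell to its surface, where CD4 T cells read them. The α and β chains assemble around the invariant chain, which blocks the groove and is then cut down by proteases to a short peptide called CLIP. H2-M exchanges CLIP for other peptides, and H2-O restrains H2-M. CIITA binds no DNA itself but sits on the RFX, CREB and NF-Y proteins at the promoters of all these genes, and in macrophages IFNγ switches it on through IRF1 and USF1, among others.

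The labels were first checked against 2 genes. Erbb4 lay below 1 TPM in every library and was higher in the library labelled ErbB4myeKO in 4 of 6 litters, with the TPM taken over the whole transcript and not over the floxed part, so that it could not check the genotype. LysMCre is a Cre inserted in Lyz2, the lysozyme gene, which disrupts the allele that carries it. Lyz2 was at 0.434 to 0.570 of the littermate's TPM in the library labelled ErbB4myeKO in litters 1 to 5. In litter 6 it stood the other way, with 7997 TPM in the library labelled ErbB4myeKO and 2964 TPM in that labelled ErbB4FF, a ratio of 2.70. Litter 6 thus went against its labels by this gene, and groups below keep the labels. Where the mean difference between genotypes is given for a member or a pathway gene, it is given with and without that litter.

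Ordered by level, H2-Ab1 was the most abundant member, with a mean of 2853 TPM over the 12 libraries that ranked 27 among the 8780 genes tested. H2-Aa (2636 TPM, rank 31) and Cd74 (1992 TPM, rank 44) came next, H2-DMb1 (264 TPM, rank 409) and H2-DMa (135 TPM, rank 688) were far lower, and Ciita (7.96 TPM, rank 4751), H2-Oa (3.84 TPM, rank 6322), H2-Ob (2.27 TPM, rank 7365) and H2-DMb2 (1.62 TPM, rank 7998) were the lowest. From H2-Aa down to Ciita each member exceeded the next in 12 of 12 libraries. The other neighbours changed places in some libraries, as H2-Ab1 exceeded H2-Aa in 10 of 12, Ciita exceeded H2-Oa in 11, H2-Oa exceeded H2-Ob in 10 and H2-Ob exceeded H2-DMb2 in 9. The 9 members together made up 0.514% to 1.01% of all TPM in libraries labelled ErbB4myeKO (median 0.806%) and 0.462% to 1.30% in those labelled ErbB4FF (median 0.742%).

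The promoters are shown because the members share a regulator. RefSeq promoter windows (GRCm38.p6, 250 bases before to 50 after a start) were held for 6 of the 9 members, 7 windows in all. The letters searched, on both strands, were AAC, then 22 to 28 bases, then GATTGG, which stand for the end of an X1 box core and for a Y box, and the search was chosen after the windows had been read. They were found in 5 of the 6 members and in 1.40% of all 32851 windows. The stricter form with GCAAC in place of AAC was found in H2-Aa, H2-Oa and H2-Ob and in 0.137% of all windows. Neither of the 2 windows of H2-DMa held these letters. Capitals mark the first core and the GATTGG, read 5′ to 3′ on the strand of the gene.
H2-Aa, minus strand of chr17:34287863-34287910: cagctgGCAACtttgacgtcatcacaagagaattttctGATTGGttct
H2-DMb2, plus strand of chr17:34145120-34145167: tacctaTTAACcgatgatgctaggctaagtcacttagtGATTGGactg
H2-Oa, plus strand of chr17:34092297-34092344: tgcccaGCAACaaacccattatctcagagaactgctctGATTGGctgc
H2-Ob, plus strand of chr17:34238812-34238856: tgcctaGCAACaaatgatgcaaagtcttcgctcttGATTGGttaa
The gap between the marked letters was 27 bases in H2-Aa, H2-DMb2 and H2-Oa and 24 bases in H2-Ob. The H2-DMb1 window also held the looser form, with GTAAC and a gap of 27 bases, and all 48 bases of that stretch lie within an annotated GENCODE exon. The windows follow RefSeq starts, which can differ from the GENCODE gene starts given below, so that the stretches of H2-DMb1 and H2-DMb2 lie past those starts and that of H2-Oa crosses its own by 5 bases. A match describes letters and not a bound site.

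Between genotypes the abundant members differed little in size, with folds of 1.05 for H2-Ab1, 1.04 for H2-Aa, 1.03 for Cd74 and H2-DMb1 and 0.969 for H2-DMa in libraries labelled ErbB4myeKO over those labelled ErbB4FF. Ciita had the largest fold, 1.22. None of the differences passed an adjusted p of 0.05, and litters differed from each other far more than littermates did.

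H2-Aa (ENSMUSG00000036594, chromosome 17, 34282744 to 34287823 of GRCm38) encodes the α chain of the classical molecule. It had 1677 to 3956 TPM in libraries labelled ErbB4myeKO (median 2579) and 1394 to 4102 TPM in those labelled ErbB4FF (median 2526). The groups overlapped over nearly their whole range. Means were 2669 ± 741 and 2604 ± 880 TPM (SD, n = 6). The difference on the log2(TPM + 0.5) scale was 0.06 (SE 0.06, 95% interval -0.09 to 0.21, limma adjusted p = 0.777), with the library labelled ErbB4myeKO higher in 4 of 6 litters. Without litter 6 it was 0.02 (95% interval -0.14 to 0.18).

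H2-Ab1 (ENSMUSG00000073421, chromosome 17, 34257689 to 34269419) encodes the β chain that pairs with it. It had 1921 to 3598 TPM in libraries labelled ErbB4myeKO (median 2893) and 1697 to 5114 TPM in those labelled ErbB4FF (median 2565). The highest value of all belonged to the library labelled ErbB4FF of litter 3, whose littermate had 3598 TPM. Means were 2859 ± 551 and 2847 ± 1177 TPM (SD, n = 6). On the log2 scale it differed by 0.07 (SE 0.11, 95% interval -0.20 to 0.33, limma adjusted p = 0.866), higher in 4 of 6 litters, and 0.04 without litter 6 (95% interval -0.28 to 0.37). Without litter 3 it was 0.18 with an unadjusted p of 0.0380 and a limma adjusted p of 0.513.

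Cd74 (ENSMUSG00000024610, chromosome 18, 60803848 to 60812652) encodes the invariant chain. It had 1217 to 2351 TPM in libraries labelled ErbB4myeKO (median 2101) and 1189 to 3188 TPM in those labelled ErbB4FF (median 1914). As for H2-Ab1, the highest library was that labelled ErbB4FF of litter 3, and both libraries of litter 6 were the lowest. Means were 1998 ± 398 and 1986 ± 664 TPM (SD, n = 6). Between littermates the mean log2 difference was 0.04 (SE 0.12, 95% interval -0.25 to 0.33, limma adjusted p = 0.926), higher in 4 of 6 litters, and 0.04 without litter 6 (95% interval -0.32 to 0.41). Cd74 was the 1 member with a second transcript in the table, ENSMUST00000167610, which made up between 0% and 0.836% of the gene and was listed at 0 in the library labelled ErbB4myeKO of litter 3.

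**Figure D1:**
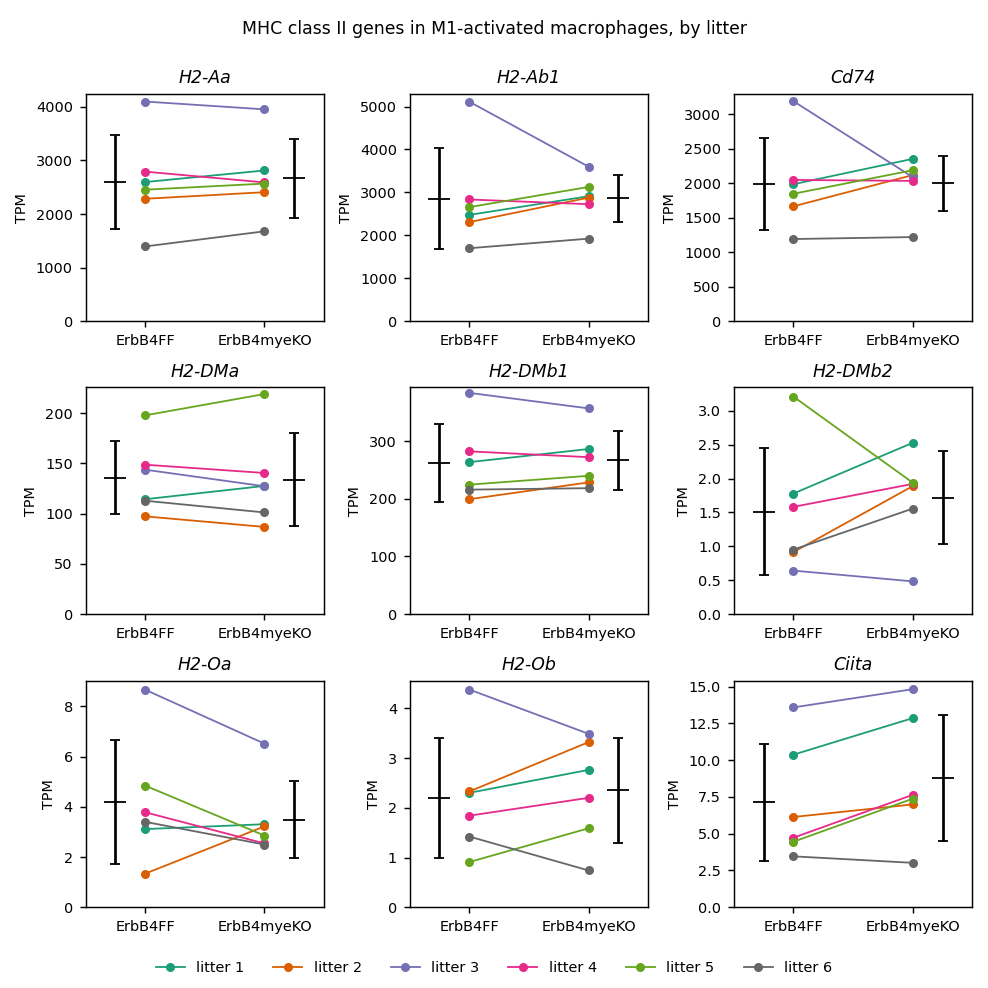
TPM of each MHC class II gene (linear axis from 0) in libraries labelled ErbB4FF and ErbB4myeKO. Coloured lines join littermates, black bars are the mean ± SD (n = 6), and the lines of litter 3 lie highest in 7 of the 9 panels by the mean of the pair, while no panel separates the genotypes.

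H2-DMa (ENSMUSG00000037649, chromosome 17, 34119541 to 34139101) encodes the α chain of the peptide editor H2-M. It had 86.8 to 219 TPM in libraries labelled ErbB4myeKO (median 127) and 97.3 to 198 TPM in those labelled ErbB4FF (median 129). Both libraries of litter 5 stood above all others. Means were 134 ± 46.2 and 136 ± 36.2 TPM (SD, n = 6). The mean log2 difference came to -0.05 (SE 0.07, 95% interval -0.21 to 0.12, limma adjusted p = 0.851), higher in 2 of 6 litters, and -0.02 without litter 6 (95% interval -0.21 to 0.16).

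H2-DMb1 (ENSMUSG00000079547, chromosome 17, 34153072 to 34160230) encodes a β chain of the editor. It had 218 to 357 TPM in libraries labelled ErbB4myeKO (median 256) and 199 to 383 TPM in those labelled ErbB4FF (median 244). Both libraries of litter 3 were the highest, and the groups overlapped. Its log2 difference was 0.05 (SE 0.06, 95% interval -0.09 to 0.18, limma adjusted p = 0.823), higher in 4 of 6 litters, and 0.05 without litter 6 (95% interval -0.11 to 0.21).

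H2-DMb2 (ENSMUSG00000037548, chromosome 17, 34143307 to 34151555) is the neighbouring β chain gene. It had 0.484 to 2.53 TPM in libraries labelled ErbB4myeKO (median 1.91) and 0.642 to 3.21 TPM in those labelled ErbB4FF (median 1.27). Its lowest libraries were those of litter 3, where H2-DMb1 was highest. On the log2 scale the difference was 0.18 (SE 0.22, 95% interval -0.33 to 0.69, limma adjusted p = 0.813), higher in 4 of 6 litters, and 0.11 without litter 6 (95% interval -0.46 to 0.69). It was 0.06 without litter 2 and 0.33 without litter 5. In GENCODE M21, 37.1% of the 31-base words of the H2-DMb2 transcript also occur in H2-DMb1 and 37.6% of those of H2-DMb1 in H2-DMb2, so the division of reads between the 2 genes is uncertain, and more so for H2-DMb2 at its low level.

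H2-Oa (ENSMUSG00000024334, chromosome 17, 34092340 to 34095234) encodes the α chain of H2-O, the restraint on H2-M. It had 2.50 to 6.51 TPM in libraries labelled ErbB4myeKO (median 3.04) and 1.34 to 8.66 TPM in those labelled ErbB4FF (median 3.59). Litter 3 was again the highest in both groups. The difference in log2 was -0.14 (SE 0.23, 95% interval -0.67 to 0.39, limma adjusted p = 0.862), higher in 2 of 6 litters, and -0.09 without litter 6 (95% interval -0.74 to 0.56). Litter 2 stood apart at 1.02, and without it the difference was -0.37 with an unadjusted p of 0.0427 and a limma adjusted p of 0.908. Of the 31-base words of the H2-Oa transcript, 24.9% occur in other genes, none of them a member, so its reads too may be divided.

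H2-Ob (ENSMUSG00000041538, chromosome 17, 34238903 to 34254414) encodes the β chain of H2-O, which B cells and some dendritic cells are known to make. It had 0.740 to 3.49 TPM in libraries labelled ErbB4myeKO (median 2.48) and 0.909 to 4.38 TPM in those labelled ErbB4FF (median 2.07). Libraries differed by a log2 of 0.08 (SE 0.19, 95% interval -0.37 to 0.54, limma adjusted p = 0.902), higher in 4 of 6 litters. Without litter 6, where the difference was -0.63, it was 0.23 (95% interval -0.19 to 0.65, limma adjusted p = 0.789), higher in 4 of 5 litters.

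Ciita (ENSMUSG00000022504, chromosome 16, 10480059 to 10528418) encodes the transactivator of the other members, and its difference was the largest of the 9 in the fit of all 6 litters. It had 3.02 to 14.8 TPM in libraries labelled ErbB4myeKO (median 7.52) and 3.46 to 13.6 TPM in those labelled ErbB4FF (median 5.43). The groups overlapped, while within litters the library labelled ErbB4myeKO was the higher in 5 of 6, with log2 differences of 0.30, 0.17, 0.12, 0.64, 0.67 and -0.17 in litters 1 to 6. The mean difference was 0.29 (SE 0.13, 95% interval -0.02 to 0.60), a fold of 1.22 (95% interval 0.987 to 1.51), with a limma adjusted p of 0.603, an unadjusted p of 0.0623 and an exact two-sided permutation p of 0.0938 over the 64 swaps within litters. A difference towards higher values in at least 5 of 6 litters was found in 13.9% of all genes tested. The 1 litter that went the other way was litter 6, which also went against its labels by Lyz2. Without it the difference was 0.38 (SE 0.13, 95% interval 0.07 to 0.69), a fold of 1.30 (95% interval 1.05 to 1.61), higher in 5 of 5 litters, with an unadjusted p of 0.0231 and a limma adjusted p of 0.767, and the exact permutation p was 0.0625, the smallest that 5 litters allow. Higher values in all 5 of these litters were found in 3.90% of genes. The table holds 1 transcript of Ciita, 66.8% of whose 31-base words also occur in other transcripts of the gene.

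Across the 9 members, 0 passed an adjusted p of 0.05 in limma, as was the case for 0.0% of all 8780 genes, and 0 had an unadjusted p under 0.05, against 8.21% of all genes (3.83% higher and 4.38% lower in libraries labelled ErbB4myeKO). In log2 the difference was above 0 for 7 members, against 49.8% of all genes, with a median of 0.06 and a median size of 0.07, where all genes had a median of -0.00 and a median size of 0.13. No member went the same way in all 6 litters, against 4.82% of all genes. Without litter 6 the count was again 0 of 9 at an adjusted p under 0.05 (0.0% of all genes) and 1 of 9, Ciita, at an unadjusted p under 0.05 (5.84% of all genes), with 7 of 9 above 0 (48.7% of all genes). The members share a regulator and litters, so their directions are not independent of each other.

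**Figure D2:**
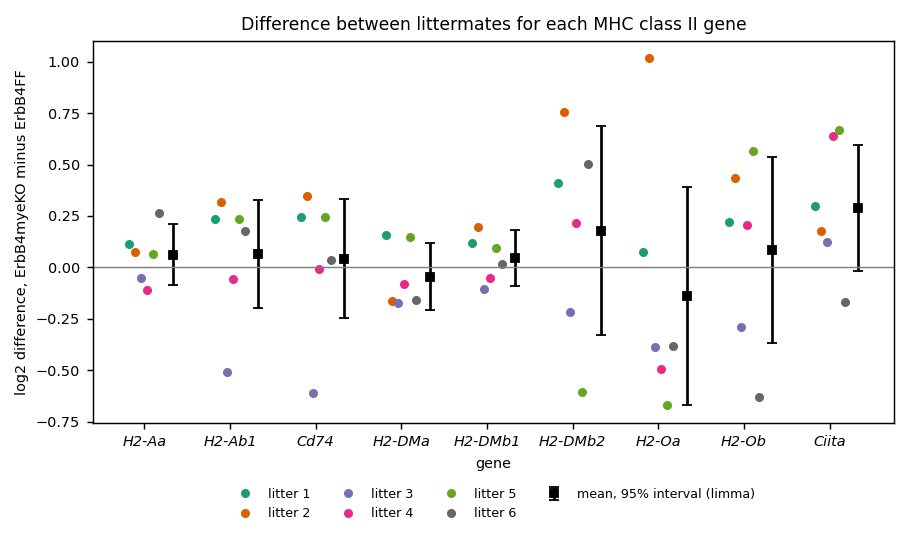
Difference in log2(TPM + 0.5) between littermates, library labelled ErbB4myeKO minus library labelled ErbB4FF, for each gene. Coloured points are the 6 litters and black squares the limma mean with its 95% interval, and all 9 intervals include 0, with that of Ciita reaching from -0.02 to 0.60.

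The direction of the set differed from litter to litter. The library labelled ErbB4myeKO was higher for 9 of 9 members in litter 1, 8 in litter 2, 1 in litter 3, 3 in litter 4, 7 in litter 5 and 5 in litter 6, while between 45.9% and 52.2% of all genes were higher in it. The median log2 difference of the members was 0.22 in litter 1, 0.32 in litter 2, -0.22 in litter 3, -0.05 in litter 4, 0.15 in litter 5 and 0.02 in litter 6. In litter 3 Ciita was the 1 member that was higher in the library labelled ErbB4myeKO, while H2-Ab1 (-0.51) and Cd74 (-0.61) differed most in the other direction. A litter is 1 pair of mice, so these are descriptions with no test.

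Litter accounted for between 74.4% (H2-Oa) and 97.4% (H2-Aa) of the variance of a member's log2 values, with a median of 86.3%, where the median of all genes tested was 78.1% (interquartile range 62.4% to 89.4%). Genotype accounted for a median of 0.654%, and for 4.48% in Ciita (0.828% and 11.8% without litter 6), where the median of all genes tested was 2.49% over the 6 litters. By the mean of both littermates, litter 3 was the highest for 7 of 9 members and litter 6 the lowest for 5 of 9. Between the highest and the lowest litter the fold was 1.73 in H2-DMb1, 2.14 in Cd74, 2.38 in H2-Ab1, 2.63 in H2-Aa and 3.94 in Ciita. H2-DMa was highest in litter 5 and H2-DMb2 highest in litter 5 and lowest in litter 3. With the deposited transcripts of each library scaled to 1 common sum, litter 3 stayed the highest for the same 7 members, litter 6 was the lowest for 4 of 9 (6 of 9 with libraries scaled by median ratios), the highest litter of H2-DMb2 became litter 1, and the fold of H2-DMa went from 2.26 to 1.86. The labels give each litter a batch letter of its own, so litter and batch cannot be told apart.

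**Figure D3:**
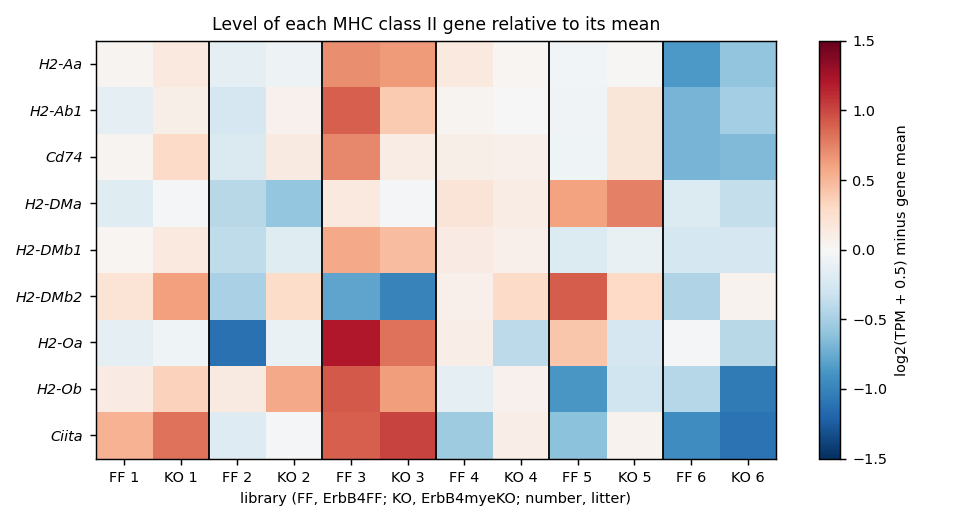
Colour shows log2(TPM + 0.5) of each gene in each library minus the mean of that gene over the 12 libraries, with littermates side by side between the vertical lines. Both libraries of litter 3 are above the mean for most genes, both of litter 6 are below it for H2-Aa, H2-Ab1, Cd74 and Ciita, and H2-DMa and H2-DMb2 follow other litters.

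Over the 12 libraries, the log2 level of the members was set against that of the summed classical chains H2-Aa and H2-Ab1, as a description, since the libraries share litters. Pearson's r was 0.93 for Cd74, 0.85 for H2-DMb1, 0.82 for Ciita, 0.73 for H2-Ob, 0.66 for H2-Oa, 0.34 for H2-DMa and -0.26 for H2-DMb2. H2-DMa and H2-DMb2 were thus the members least like the classical chains. Among 5769 other genes that averaged 5 TPM or more, the highest values were 0.92 for Srsf4, Ly6i and Cand1, 0.91 for Vamp2 and Hnrnpdl, 0.88 for Acox3 and 0.87 for Zyx and Rpa2. The lowest were -0.92 for Milr1, -0.89 for Cd300ld and -0.88 for Rabl3. Spearman's rho over the 12 libraries was 0.63 for Cand1 and 0.67 for Hnrnpdl, and between 0.75 (Zyx) and 0.90 (Vamp2) for the other genes with a high r. Over the 6 differences between littermates, r was 0.86 for Rpa2, 0.79 for Ly6i, 0.78 for Zyx and 0.59 for Acox3. It was 0.41 for Cand1, 0.39 for Vamp2, 0.25 for Srsf4 and 0.02 for Hnrnpdl. The likeness of Srsf4 and Hnrnpdl thus lay mostly between litters, again as a description.

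Ratios between the chains of one complex do not depend on how a library is scaled. The ratio of H2-Aa to H2-Ab1 was 0.925 ± 0.104 in libraries labelled ErbB4myeKO and 0.929 ± 0.0992 in those labelled ErbB4FF (SD, n = 6), with a range of 0.802 to 1.10 over the 12 libraries. Its log2 difference within litters was -0.01 ± 0.25 (SD, n = 6, exact two-sided permutation p = 0.969, adjusted over 3 ratios 0.969). The ratio of Cd74 to H2-Aa plus H2-Ab1 was 0.365 ± 0.0502 and 0.368 ± 0.0167, a log2 difference of -0.02 ± 0.19 (exact permutation p = 0.781, adjusted 0.969). The lowest of these ratios was 0.276, in the library labelled ErbB4myeKO of litter 3. The ratio of H2-DMa to H2-DMb1 plus H2-DMb2 was 0.510 ± 0.202 and 0.536 ± 0.174, a log2 difference of -0.09 ± 0.16 (exact permutation p = 0.250, adjusted 0.750), with 0.907 and 0.870 in litter 5 as the highest values. Without litter 6 the 3 log2 differences were -0.03, 0.01 and -0.07 in this order (exact permutation p = 0.875, 1.00 and 0.5, where 5 litters allow no p below 0.0625).

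Whether a larger difference in Ciita went with a larger difference in its targets was asked over the 6 litters, in 8 pairs. For H2-Ob Pearson's r was 0.79 (exact permutation p = 0.0694, adjusted over 8 pairs 0.544) and Spearman's rho 0.77 (exact permutation p = 0.103, adjusted 0.569). Without litters 5 and 6, the 2 farthest from the median Ciita difference, r was 0.29. Those litters hold the highest and the lowest Ciita difference, so leaving out both narrows its range and cannot show what the relation rests on. With 1 litter left out at a time r ranged from 0.55 (without litter 6) to 0.93 (without litter 2). For H2-Aa r was -0.63 (exact permutation p = 0.185, adjusted 0.544), for H2-DMa 0.59, for H2-DMb2 -0.53, for H2-Oa -0.31, for Cd74 0.25, for H2-Ab1 0.08 and for H2-DMb1 0.03. These values too moved with the litters included, as r for H2-Aa was -0.21 without litter 6 and -0.84 without litter 3, r for H2-Oa was -0.62 without litter 6 and -0.08 without litter 5, and without litters 5 and 6 r was 0.24 for H2-DMa and 0.02 for H2-DMb2. No pair passed the adjustment.

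Of the pathway around the members, 37 further genes were listed by role, 35 were in the table and 31 were tested. The log2 difference was above 0 for 9 and below 0 for 22, with a median of -0.09. At an unadjusted p under 0.05 there were 2 of 31 (6.45%, against 8.21% of all genes), and 0 at an adjusted p under 0.05. By role, 2 of 9 genes of the enhanceosome and its coactivators, 2 of 7 of the IFNγ signal, 3 of 8 of antigen processing and 2 of 7 of trafficking were above 0. Without litter 6 these counts were 2 of 9, 1 of 7, 4 of 8 and 3 of 7, with 10 above 0 and 21 below in all, and 3 of 31 were at an unadjusted p under 0.05 (9.68%, against 5.84% of all genes), namely Usf1, Ifngr2 and Ctsd. Ctsd, a lysosomal protease named after its values were seen, had a log2 difference of 0.13 in the fit of all 6 litters (95% interval -0.07 to 0.34, limma adjusted p = 0.660, higher in 4 of 6 litters) and of 0.21 without litter 6 (unadjusted p = 0.0253, limma adjusted p = 0.767).

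Both genes with an unadjusted p under 0.05 belong to the IFNγ signal that leads to Ciita, and both were lower in libraries labelled ErbB4myeKO. Usf1, a factor that binds the IFNγ-responsive Ciita promoter, had 7.44 to 24.5 TPM in libraries labelled ErbB4myeKO and 16.9 to 28.7 TPM in those labelled ErbB4FF, with means of 17.0 ± 5.69 and 23.2 ± 4.83 TPM (SD, n = 6). The groups overlapped, and the widest gap between littermates was in litter 3, with 7.44 against 16.9 TPM. Its log2 difference was -0.49 (SE 0.13, 95% interval -0.79 to -0.19, unadjusted p = 0.00548, limma adjusted p = 0.603), lower in 6 of 6 litters, and -0.55 without litter 6. Ifngr2, a chain of the IFNγ receptor, had means of 97.9 ± 16.3 and 112 ± 18.9 TPM (SD, n = 6) and a log2 difference of -0.20 (SE 0.06, 95% interval -0.33 to -0.06, unadjusted p = 0.0103, limma adjusted p = 0.603), lower in 6 of 6 litters, and -0.22 without litter 6. For each the exact permutation p was 0.0312, the smallest that 6 litters allow. It was computed from the same differences as the unadjusted p that chose these genes. Without litter 6 each was lower in 5 of 5 litters, with an exact permutation p of 0.0625 and a limma adjusted p of 0.767. Neither passed the adjustment over all genes, with or without that litter. Irf1, the most abundant gene of this role at 504 TPM, had a log2 difference of -0.05 (95% interval -0.19 to 0.10, limma adjusted p = 0.819), and of -0.01 without litter 6.

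The most abundant tested genes of the other roles had intervals that include 0. Kat2b, an acetyltransferase that acts with CIITA, had 20.2 TPM and a log2 difference of -0.30 (95% interval -0.65 to 0.06, limma adjusted p = 0.615), and of -0.31 without litter 6. Without litter 2 it was -0.16 (unadjusted p = 0.225), and without litter 3 it was -0.41 (unadjusted p = 0.0198). Ctss, the cathepsin that makes the last cut of the invariant chain, was more abundant than any member at 4280 TPM, with a log2 difference of 0.01 (95% interval -0.15 to 0.17, limma adjusted p = 0.975), and of 0.02 without litter 6. Rab7, a GTPase of late endosomes, had 344 TPM and a log2 difference of -0.02 (95% interval -0.14 to 0.09, limma adjusted p = 0.886), and of -0.01 without litter 6. March1, a ubiquitin ligase that removes class II molecules from the surface, was picked after its values were seen, with a log2 difference of -0.85 (95% interval -2.04 to 0.35, limma adjusted p = 0.649) that was lower in 5 of 6 litters, litter 6 being the exception. Without litter 6 it was -1.20 (95% interval -2.44 to 0.05, unadjusted p = 0.0577, limma adjusted p = 0.767), lower in 5 of 5 litters, and without litter 3, where the library labelled ErbB4myeKO was listed near 0 against 5.80 TPM, it was -0.29 (unadjusted p = 0.323). The 3 other class II loci all lay below the filter and were not tested. H2-Ea-ps had the highest mean of them (0.0552 TPM), from 1 library above 0, that labelled ErbB4myeKO of litter 4 (0.662 TPM). Another of the 3 averaged nearly the same, 0.0540 TPM, with 7 libraries above 0. Rfx5, a subunit of RFX, averaged 0.920 TPM and lay below the filter.

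**Figure D4:**
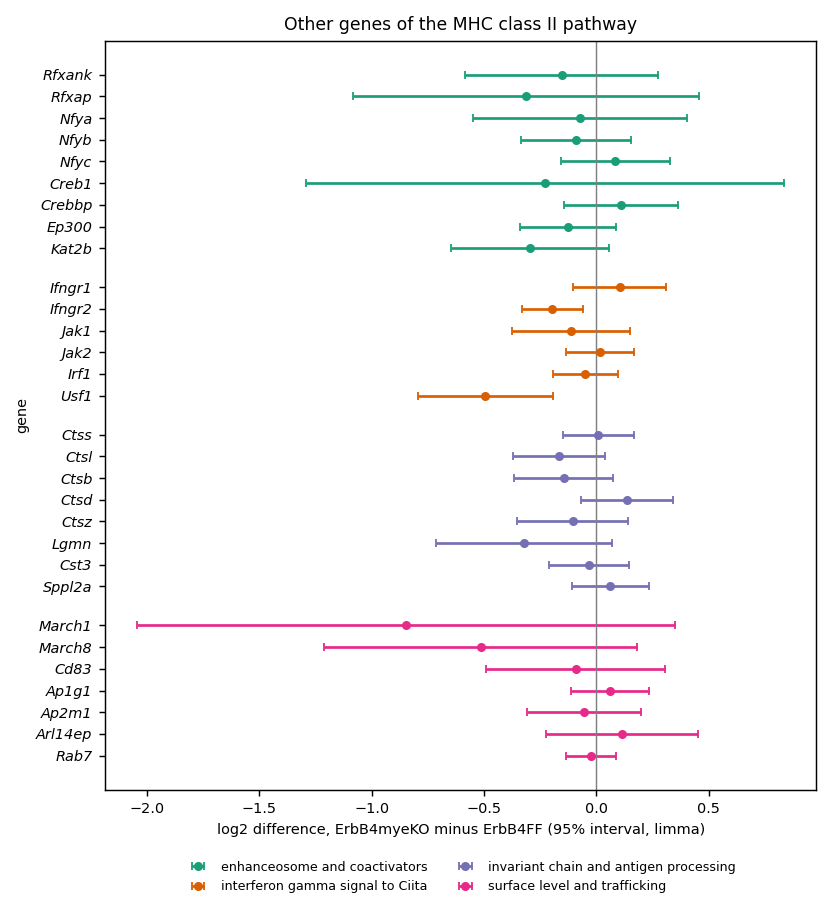
Difference in log2(TPM + 0.5), libraries labelled ErbB4myeKO minus those labelled ErbB4FF, for 30 of the 31 tested genes of the pathway list. Points are the limma mean and bars its 95% interval, coloured by role, and the intervals of Usf1 and Ifngr2 lie below 0.

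B cells and dendritic cells also express these genes at high levels, so their markers were read in the same libraries. All 8 macrophage markers had a mean of at least 1 TPM, with sums of 8417 to 12521 TPM in libraries labelled ErbB4myeKO (median 10084) and 7179 to 15964 TPM in those labelled ErbB4FF (median 13939), a list that includes Lyz2. The sum was lower in the library labelled ErbB4myeKO in litters 1 to 5 and higher in litter 6 (12521 against 7179 TPM). For the 7 markers other than Lyz2 the sums were 2602 to 6223 TPM (median 5334) and 2708 to 7347 TPM (median 4588). Of 10 dendritic cell markers 3 had a mean of at least 1 TPM (Xcr1, Clec9a and Ccr7), Cd209a and Siglech were at 0 in every library, and Flt3 and Zbtb46 did not exceed 0.0789 and 0.394 TPM. The sums were 45.0 to 122 TPM (median 65.3) and 30.6 to 94.0 TPM (median 45.2), and the sum was higher in the library labelled ErbB4myeKO in litters 1, 2, 4 and 6, lower in litter 3, and 45.0 against 44.9 TPM in litter 5. Most of this sum was Ccr7, with a mean of 47.6 TPM against 13.3 TPM for Xcr1 and 1.67 TPM for Clec9a, and Ccr7 is also counted among the genes of M1 macrophages. Of 10 B cell markers 1, Cd22, had a mean of at least 1 TPM, Cr2 was at 0 in every library, and the sums were 1.24 to 4.60 TPM and 0.892 to 4.53 TPM. Of 5 T cell markers Lck was at 0 in every library, and the sums did not exceed 2.90 TPM. Neutrophil markers summed to 39.6 to 371 TPM and 39.9 to 185 TPM, with the highest values in litters 5 and 6. Litter 6 was the lowest litter for 5 of the members, while litter 5 was the lowest for 0 and the highest for 2. Within litter 6 the library labelled ErbB4myeKO had the higher neutrophil sum (371 against 153 TPM) and also the higher sum of the members (5142 against 4618 TPM). The part of other cells in the members' levels was not tested, and in bulk cultures fewer cells of a type and less RNA per cell cannot be told apart.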

How the data were processed

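The data were 12 RNA-seq libraries of M1-activated BM-Mɸs, 6 per genotype, with littermates paired by the number on the labels. Per the authors' methods, stranded mRNA libraries were read as 75 bp single ends and pseudoaligned with kallisto to the mouse transcriptome (the submitters' notes name mm10, and versions are not given in the sources used here). The authors deposited TPM only for APPRIS principal transcripts, so a library holds part of its total TPM. Their sleuth columns, which hold fold changes and p- and q-values from a test adjusted for litter and sex, were not used. Of 29213 lines, 405 repeated a transcript and were counted once, leaving 28808 transcripts of 22243 genes. The TPM of a gene were summed. Positions come from GENCODE M21 (GRCm38).

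Genes averaging 1 TPM or more (8780) were put on the log2(TPM + 0.5) scale. limma 3.58.1 (R 4.3.3; lmFit, then trended eBayes) took genotype as the effect and litter as the block, and p was adjusted by Benjamini-Hochberg over all genes tested. The code was tested on simulated data with planted differences larger than those of the members. That test does not tell how often differences of the members' size would be found. For single values, an exact two-sided permutation test exchanged littermates in all 64 ways, which cannot give a p below 0.0312. Littermates were paired by the design, and after centring of each gene their log2 values correlated at 0.273 to 0.774. Fold changes on this scale understate those of low genes. Depth is not held by TPM, and the number of genes above 0 was 10214 to 12985 in libraries labelled ErbB4myeKO and 10910 to 12830 in those labelled ErbB4FF.

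H2-Eb1, Ifi30 and Hm13 were not analysed here, so the classical chains are H2-Aa and H2-Ab1. Single values of some listed genes are not reported here, though the counts and sums include them. The members, the pathway list and the markers were chosen with earlier results of these data known. Genes named beside the members are pathway genes with an unadjusted p under 0.05, the most abundant pathway gene of each role, and the genes most and least like the classical chains. March1, Ctsd, Rfx5, Erbb4 and Lyz2 were added outside this rule after values were seen. Single cell type markers were named outside it as well. Alternatives were the omission of the block, other pseudocounts (0.1 and 1), filters (none and 5 TPM) and scalings, no trend, the top transcript of each gene, a covariate from Y-linked genes in place of sex, and each litter left out. Python 3.11.15 with pandas 2.3.3 and scipy 1.17.1 was used for the other steps.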

Additional observations from a re-analysis of the deposited data

Results flagged for a closer look

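Each group of 6 libraries, and each set of 6 differences between littermates, was searched for a value far from the rest by Dixon's criterion. Of 27 such groups 4 held one. The criterion flags about 1 in 20 of independent groups, but these groups share libraries and litters, so that rate does not apply to their count. All 4 were in libraries of litters 3 and 6 and are given as values on the log2(TPM + 0.5) scale.

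Cd74 was 10.25 in the library labelled ErbB4myeKO of litter 6, while the other libraries with that label were between 10.99 and 11.20. The difference between littermates in Cd74 was -0.61 in litter 3, while the other litters were between -0.01 and 0.35. H2-DMb2 was -0.0238 in the library labelled ErbB4myeKO of litter 3, against 1.04 to 1.60 in the others. H2-Oa was 2.81 in the library labelled ErbB4myeKO of litter 3, against 1.58 to 1.93 in the others. The causes were not tested.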

How the results depend on the processing

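The number of members called at an adjusted p under 0.05 was 0 under every alternative run, and the lowest adjusted p of a member was 0.513. Of 141 member differences under alternatives, 139 kept their direction and 2 did not, Cd74 at -0.0194 without litter 2 (range with each litter left out -0.0194 to 0.172) and H2-Ob at -0.0126 without litter 5 (range -0.0126 to 0.227). The count at an unadjusted p under 0.05 ranged from 0 to 1 when a litter was left out, the 1 being H2-Oa without litter 2, H2-Ab1 without litter 3 and Ciita without litter 6. With each litter left out, the difference ranged from 0.21 to 0.38 in Ciita, 0.0192 to 0.0941 in H2-Aa, 0.0167 to 0.182 in H2-Ab1, -0.0863 to -0.0197 in H2-DMa, 0.0148 to 0.0751 in H2-DMb1, 0.0620 to 0.334 in H2-DMb2 and -0.371 to -0.0333 in H2-Oa. That of the named pathway genes, added after seeing the data, was -0.549 to -0.367 in Usf1, -0.223 to -0.172 in Ifngr2 and -0.413 to -0.158 in Kat2b. It was -1.20 to -0.286 in March1 and 0.0940 to 0.212 in Ctsd. For Irf1 it was -0.0762 to -0.00585 and for Rab7 -0.0339 to -0.00584, while Ctss changed sign, with -0.0403 to 0.0488. With no replicate block for litter, 0 members were called, and the adjusted p of every member, Ciita included, was 1.00. A filter at a mean of 5 TPM left 6 of the members. With the covariate from Y-linked genes the difference was 0.314 in Ciita, 0.0385 in H2-Aa, 0.0430 in H2-Ab1 and 0.0279 in Cd74. It was -0.0410 in H2-DMa, 0.0509 in H2-DMb1, 0.156 in H2-DMb2, -0.0597 in H2-Oa and 0.155 in H2-Ob.

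The ratio of H2-Aa to H2-Ab1 changed sign, to 0.0158, 0.0407, 0.00231 and 0.0261, without litters 1, 2, 4 and 5 (range -0.0988 to 0.0407), and that of Cd74 to the classical chains, to 0.0384 and 0.0105, without litters 3 and 6 (range -0.0555 to 0.0384). The correlation of Ciita with H2-Ab1 became -0.387 and -0.0996 without litters 3 and 5 (range -0.387 to 0.283), and that with H2-DMb1 -0.177, -0.114 and -0.0713 without litters 3, 5 and 6 (range -0.177 to 0.339). The cause was not tested beyond the smaller number of litters. The table does not hold the depth of each library, so how far counting error limits H2-DMb2, H2-Oa and H2-Ob was not tested.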
